A study of Homo sapiens with 6 samples.

Results

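The 10 genes described here belong to the transforming growth factor beta (TGF-beta) pathway: the ligand genes TGFB1 and TGFB2, the latent-protein relative LTBP2, the receptor genes TGFBR1, TGFBR2 and TGFBR3, the signal transducers SMAD2 and SMAD3, and the repressors SKI and SKIL. They were taken by gene name from a table of counts for 58735 genes, and all 10 were among the 15768 genes with enough counts to be tested. ES2 is a human ovarian cancer cell line, which the labels call high-grade serous carcinoma. It was transfected with small interfering RNAs (siRNAs, short duplexes that direct the cell to destroy a matching mRNA) against UAP1 in 3 libraries (siUAP1, labelled UAP1 knockdown) and with a control siRNA in another 3 (control, labelled WT). Cells of both groups grew in medium with fetal bovine serum, received the same lipid reagent, had their medium changed after 6 hours and gave RNA after 48 hours. UAP1 encodes the enzyme that makes UDP-N-acetylglucosamine, the sugar donor for glycan chains. The labels name 2 UAP1 siRNAs without saying whether they were pooled, so effects of losing UAP1 and other effects of these duplexes cannot be told apart.

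TGF-beta ligands are secreted as latent complexes held in the matrix and, once freed, bring the type II receptor TGFBR2 and the type I receptor TGFBR1 together. TGFBR1 then phosphorylates SMAD2 and SMAD3, which enter the nucleus with SMAD4 and bind target genes. SKI and SKIL (SnoN) are related nuclear proteins that bind these SMADs, recruit co-repressors and hold target genes down, and SKIL is itself a TGF-beta target gene in many cells. In carcinoma cells the pathway is known for its part in matrix production and in the change towards a mesenchymal shape.

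Library totals were 23727266 to 25972582 counts in siUAP1 and 21267240 to 25054159 counts in control libraries, and mitochondrial transcripts took 4.72% to 5.64% of siUAP1 and 4.23% to 6.02% of control counts. UAP1 itself was at 21.8, 23.3 and 25.2 CPM in siUAP1 replicates 1 to 3, against 345.3, 357 and 444.4 CPM in control replicates 1 to 3 (CPM, counts per 1000000 counts of the library after TMM scaling of its total). The knockdown was thus present in each siUAP1 library (log2 fold change -4.03, SE 0.136, edgeR adjusted p = 6.12e-06). Of the serous carcinoma markers, MUC16 was at 0 counts in all libraries, CDH1 and EPCAM had 1 and 6 counts over the 6 libraries, and the group means of PAX8 and WT1 were at or below 2.02 CPM, while the keratin genes KRT7, KRT8 and KRT18 were abundant. The epithelial surface markers that go with the labelled carcinoma type were therefore at or near 0. Leukocyte markers summed to 0.0383 to 0.461 CPM in siUAP1 and 0.0941 to 0.451 CPM in control libraries. The summed serous list was at 1118 to 1419 CPM in siUAP1 and 797.9 to 895.6 CPM in control libraries, through its keratins, and its part in the results was not tested.

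Both groups carry replicate numbers 1 to 3 in the labels, and libraries with the same number varied together. Members were therefore read from a fit on the group alone and from a fit with the replicate number as a block, which compares siUAP1 with control within each of 3 pairs. On the group alone, edgeR called 0 of the 10 members at an adjusted p under 0.05, beside 0.108% of all genes tested (17 genes), and 3 members had an unadjusted p under 0.05, as did 1125 genes in all. DESeq2 on the group alone called 1 member, SKI. With the block, 6 of the 10 members passed: TGFB2, SKIL, TGFB1 and SMAD3 rose, and SKI and TGFBR2 fell. All genes tested passed in 16.2% of cases with the block, 9.07% higher and 7.14% lower in siUAP1. Since the members were chosen with earlier results of these data known, their share is no test of the family. From here on, rose and fell refer to the fit with the block, and fold changes are log2 values of siUAP1 over control from that fit unless the group alone is named. The median over the 10 members was 0.12, beside -0.0029 over all genes tested. In a bulk culture, fewer cells that express a gene and less RNA of it per cell cannot be told apart.

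**Figure D1:**
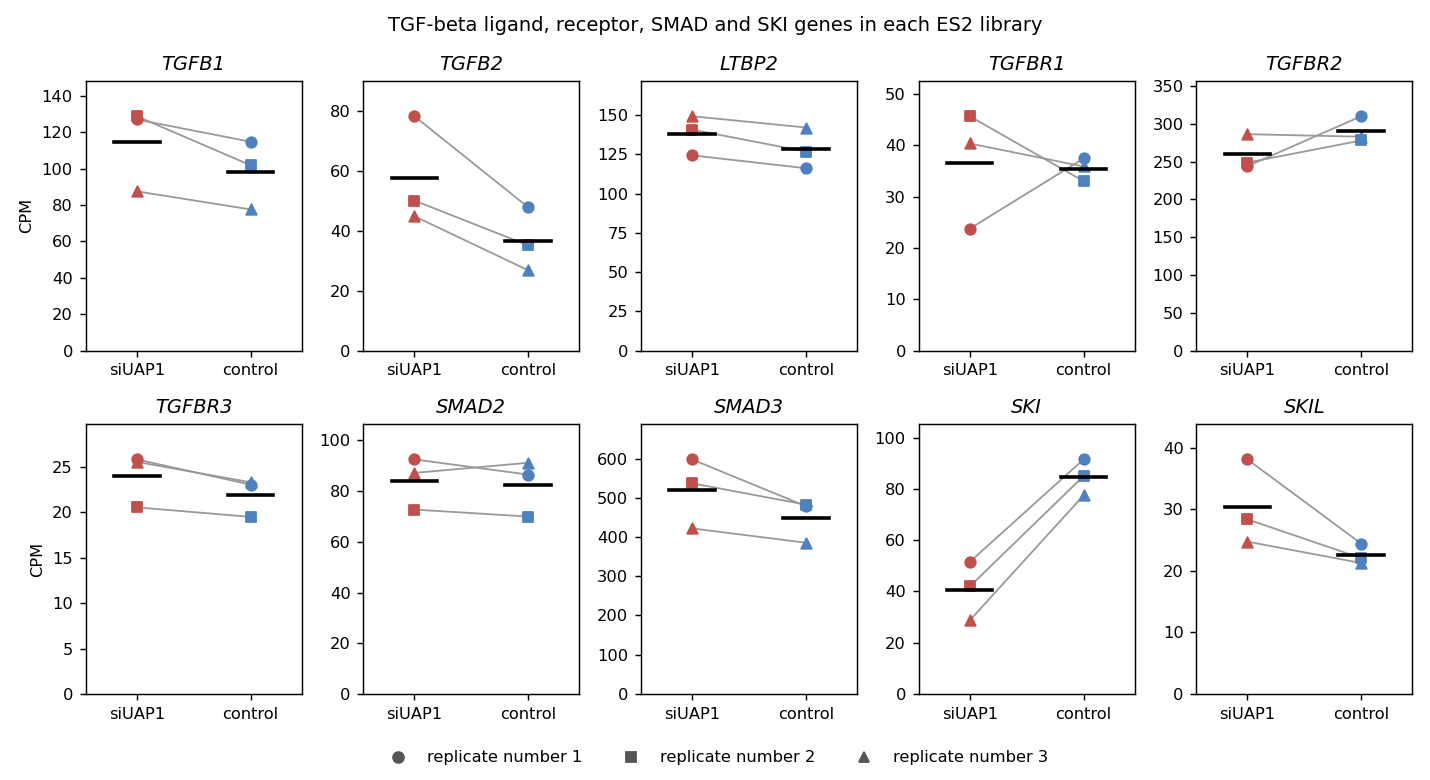
CPM (linear axis from 0) of the 10 genes in each library, siUAP1 left and control right. Points are libraries with the marker giving the replicate number, grey lines join libraries of the same number, and black bars are group means (n = 3). SKI was lower in all 3 siUAP1 libraries (28.7 to 51.5 CPM) than in all 3 control libraries (77.5 to 91.5 CPM), TGFB2 was higher within every number, and TGFBR1 moved in opposite directions.

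Among the ligands, TGFB2 rose the most and TGFB1 by a smaller step. TGFB2 (ENSG00000092969, chromosome 1, 218346235 to 218444619, plus strand) had 78.1, 50.02 and 44.8 CPM in siUAP1 replicates 1 to 3, against 47.8, 35.1 and 26.8 CPM in control replicates 1 to 3. The groups overlapped, because number 1 was high in both, while siUAP1 was higher within every number. TGFB2 rose 1.57-fold (0.65, SE 0.0634, edgeR adjusted p = 3.46e-08), with 0.71, 0.51 and 0.74 in pairs 1 to 3. On the group alone it was not called (0.66, SE 0.25, adjusted p = 0.592).

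TGFB1 (ENSG00000105329, chromosome 19, 41301587 to 41353911, minus strand), the most widely expressed ligand, had 126.9, 128.7 and 87.5 CPM in siUAP1 replicates 1 to 3, against 114.7, 101.8 and 77.5 CPM in control replicates 1 to 3. Number 3 was low in both groups, and the groups overlapped. TGFB1 rose 1.17-fold (0.22, SE 0.0517, edgeR adjusted p = 0.0037), a call that ended without pair 2 (0.16, adjusted p = 0.111), and on the group alone its adjusted p was 0.926. HNRNPUL1, at 269.6 CPM in siUAP1 and 284.6 CPM in control libraries, shares 215 exon bases with TGFB1 on the opposite strand, and since the counting gives no strand setting, TGFB1 is uncertain to that extent. The non-coding TGFB2-OT1, which had too few counts to be tested, shares 1371 exon bases with TGFB2 on the same strand.

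The promoters of the genes that rose with the block, as far as RefSeq gives each a single start, are printed with the letters that SMAD proteins bind. RefSeq windows of 250 bases before to 50 after the start (build GRCh38.p14) were matched for 9 of the 10 members, all but SKI, and held 22 windows in all, 1 each for 5 members. Capitals mark CAGAC, the core of the SMAD-binding element, on either strand (GTCTG on the opposite one). The windows are given on the gene's own strand, for TGFB2 at chr1:218345086-218345385 (plus), TGFB1 at chr19:41353873-41354172 (minus) and SKIL at chr3:170357465-170357764 (plus). The RefSeq start of TGFB2 lies before the start in the deposited table.
TGFB2: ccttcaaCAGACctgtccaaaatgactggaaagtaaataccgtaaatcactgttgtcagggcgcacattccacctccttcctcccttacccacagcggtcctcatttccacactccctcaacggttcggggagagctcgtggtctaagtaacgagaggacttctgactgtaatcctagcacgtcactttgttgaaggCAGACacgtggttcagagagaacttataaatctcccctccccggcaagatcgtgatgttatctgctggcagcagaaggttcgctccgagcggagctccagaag
TGFB1: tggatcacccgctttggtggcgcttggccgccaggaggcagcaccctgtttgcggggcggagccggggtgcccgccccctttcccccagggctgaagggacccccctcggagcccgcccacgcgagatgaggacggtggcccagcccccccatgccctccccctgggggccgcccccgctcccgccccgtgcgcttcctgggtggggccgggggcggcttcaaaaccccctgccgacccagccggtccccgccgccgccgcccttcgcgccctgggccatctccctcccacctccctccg
SKIL: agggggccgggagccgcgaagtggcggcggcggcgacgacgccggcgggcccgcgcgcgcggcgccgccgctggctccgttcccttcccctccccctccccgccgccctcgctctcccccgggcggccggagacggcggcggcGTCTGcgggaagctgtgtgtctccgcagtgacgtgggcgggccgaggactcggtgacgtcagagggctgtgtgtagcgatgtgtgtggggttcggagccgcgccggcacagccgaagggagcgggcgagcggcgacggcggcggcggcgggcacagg

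The TGFB2 window held CAGAC at 2 places, the SKIL window at 1 and the TGFB1 window at 0. Over all members 10 of 22 windows held it, beside 45.3% of 35116 RefSeq promoter windows, and the palindrome GTCTAGAC, which reads alike on both strands and does not hold CAGAC, stood in 0 of the 22, beside 0.202% of all windows. The windows of TGFB1 and SKIL were 77.3% and 79.0% G and C, and that of TGFB2 was 51.7%. These matches describe the letters and say nothing of binding.

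LTBP2 encodes a matrix protein of the latent TGF-beta binding family that, unlike its relatives, is not known to bind latent TGF-beta itself. LTBP2 (ENSG00000119681, chromosome 14, 74498170 to 74612378, minus strand) had 124.3, 140.7 and 149.2 CPM in siUAP1 replicates 1 to 3, against 116.1, 126.7 and 142.0 CPM in control replicates 1 to 3. It was higher in siUAP1 within every number by 0.07 to 0.15, the groups overlapped, and it was not called (0.11, SE 0.0476, edgeR adjusted p = 0.136, or 0.963 on the group alone). The opposite-strand genes AC013451.1, which had too few counts to be tested, and AC087482.1, at 0.506 CPM in siUAP1 and 0.644 CPM in control libraries, share 207 exon bases with LTBP2 and 182 with SMAD3.

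The receptors were either lower by a small step or without a call. TGFBR2, the ligand-binding type II kinase (ENSG00000163513, chromosome 3, 30606502 to 30694142, plus strand), had 243.9, 248.7 and 286.2 CPM in siUAP1 replicates 1 to 3, against 310.0, 277.9 and 282.9 CPM in control replicates 1 to 3. The libraries of number 3 were nearly level, and the groups overlapped. TGFBR2 fell 1.12-fold (-0.16, SE 0.0542, edgeR adjusted p = 0.0408, lower in 2 of 3 pairs). Its pairs, at -0.35, -0.16 and 0.02, were spread widely beside that SE. The call of TGFBR2 ended without pair 1 (-0.07, adjusted p = 0.403), without pair 2 (-0.16, adjusted p = 0.0649) and with DESeq2 and the block (adjusted p = 0.0944). On the group alone the adjusted p was 0.878.

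TGFBR1, the type I kinase that phosphorylates SMAD2 and SMAD3 (ENSG00000106799, chromosome 9, 99104038 to 99154192, plus strand), had 23.7, 45.6 and 40.3 CPM in siUAP1 replicates 1 to 3, against 37.4, 32.98 and 35.8 CPM in control replicates 1 to 3. The siUAP1 libraries lay on both sides of a narrow control range, with number 1 below it and numbers 2 and 3 above it. The SD was 11.4 CPM in siUAP1 and 2.24 CPM in control libraries. The within-pair differences were -0.65, 0.47 and 0.17, and pairs 1 and 2 lay outside the confidence interval of the block fit (-0.22 to 0.26). The SE was 0.331 with DESeq2 and the block. TGFBR1 was not called (0.02, SE 0.116, edgeR adjusted p = 0.943, or 0.996 on the group alone). Without pair 1 it was called higher (0.32, SE 0.0783, adjusted p = 0.00104), and without pair 2 it was at -0.22 (adjusted p = 0.0945), so its value rests on which pairs are used. TGFBR3, the co-receptor betaglycan (ENSG00000069702, chromosome 1, 91680343 to 91906335, minus strand), had 25.8, 20.6 and 25.6 CPM in siUAP1 replicates 1 to 3, against 23.1, 19.5 and 23.3 CPM in control replicates 1 to 3. It was slightly higher within every number and was not called (0.12, 95% interval -0.04 to 0.29, edgeR adjusted p = 0.336, or 0.967 on the group alone).

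Of the transducers, SMAD3 rose and SMAD2 was not called. SMAD3 (ENSG00000166949, chromosome 15, 67063763 to 67195195, plus strand) had 598.0, 537.1 and 422.1 CPM in siUAP1 replicates 1 to 3, against 478.7, 482.6 and 385.5 CPM in control replicates 1 to 3. It was higher in siUAP1 within every number, with number 3 low in both groups. SMAD3 rose (0.20, SE 0.0484, edgeR adjusted p = 0.00452), a call that ended without pair 3 (0.24, adjusted p = 0.061), and its adjusted p on the group alone was 0.9. SMAD2 (ENSG00000175387, chromosome 18, 47808957 to 47931146, minus strand) had 92.5, 72.7 and 87.2 CPM in siUAP1 replicates 1 to 3, against 86.5, 70.0 and 91.2 CPM in control replicates 1 to 3. Its pairs differed by 0.10, 0.06 and -0.06, and the 95% interval of the log2 fold change ran from -0.08 to 0.14 (0.03, edgeR adjusted p = 0.786, or 0.996 on the group alone).

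Of the repressors, SKI, the founding member of the repressor family, fell and showed the largest difference of the 10 genes. SKI (ENSG00000157933, GRCh38 chromosome 1, 2228695 to 2310119, plus strand) had 51.5, 41.9 and 28.7 CPM in siUAP1 replicates 1 to 3, against 91.5, 85.0 and 77.5 CPM in control replicates 1 to 3. Every siUAP1 library lay below every control library, and the lowest siUAP1 library was number 3. Means were 40.7 ± 11.5 CPM in siUAP1 and 84.7 ± 7.02 CPM in control libraries (SD, n = 3 each). Within the numbers, SKI in siUAP1 was at 56.3%, 49.3% and 37.0% of the control level. SKI fell 2.12-fold (-1.08, SE 0.0749, edgeR adjusted p = 1.35e-10), and by p it ranked 20 of 15768 genes. The pairs were at -0.83, -1.02 and -1.43, and pairs 1 and 3 lay outside the confidence interval of that fit (-1.24 to -0.93). That interval is for the mean over the pairs, so a single pair can lie outside it. However, an SE of 0.0749 is small beside pairs that run from -0.83 to -1.43. The SE and adjusted p of the block fit thus understate the spread between the pairs of SKI. On the group alone the fold change was almost the same (-1.06, SE 0.19), and the adjusted p was 0.118. With 1 pair left out at a time, SKI was still called, at -1.22 without pair 1, -1.12 without pair 2 and -0.93 without pair 3. No other annotated gene shared exon bases with SKI.

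SKIL, the SnoN gene, lay on the other side of its control. SKIL (ENSG00000136603, chromosome 3, 170357678 to 170396835, plus strand) had 38.1, 28.4 and 24.7 CPM in siUAP1 replicates 1 to 3, against 24.4, 22.1 and 21.3 CPM in control replicates 1 to 3. The groups did not overlap, although the lowest siUAP1 library was only just above the highest control library. SKIL rose 1.33-fold (0.41, SE 0.0835, edgeR adjusted p = 9.62e-04, higher in 3 of 3 pairs), and it passed without any 1 pair, with values between 0.29 and 0.50. Its pairs, at 0.64, 0.36 and 0.22, were spread widely beside that SE. On the group alone its adjusted p was 0.604. SKI and SKIL were the 2 members of 10 whose groups did not overlap, beside 12.4% of all genes tested.

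The ratio of SKI to SKIL was lower in each siUAP1 library than in any control library. It combines the changes of both genes given above and is no separate evidence. Set per gene length, as FPKM, SKI stood at 1.73, 1.89 and 1.48 times SKIL in siUAP1 replicates 1 to 3, against 4.80, 4.93 and 4.66 times SKIL in control replicates 1 to 3. The ratio averaged 1.70 ± 0.206 in siUAP1 and 4.80 ± 0.135 in control libraries (SD, n = 3 each). A two-sided exact permutation test gave p = 0.1, the smallest that 3 against 3 libraries allow, and 0.3 after adjustment over the 3 ratios computed. The other ratios, TGFB2 over TGFB1 (mean 0.318 in siUAP1, 0.232 in control) and TGFBR1 over TGFBR2 (0.0966 in siUAP1, 0.0839 in control), overlapped between the groups, with exact permutation p = 0.2 and 0.7. These tests do not use the pairs. Within the replicate numbers, SKI over SKIL was lower in siUAP1 in 3 of 3, TGFB2 over TGFB1 was higher in 3 of 3 (0.387, 0.244 and 0.322 in siUAP1 replicates 1 to 3, against 0.262, 0.217 and 0.217 in control replicates 1 to 3), and TGFBR1 over TGFBR2 was higher in 2 of 3.

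Among the genes whose log2 CPM followed SKI most closely over the 6 libraries, out of 10340 that code for protein and averaged 5 CPM or more, were LRP12 (Pearson r = 0.985) and TCP11L1 (0.98). The 6 points share their groups and replicate numbers, so these values describe a pattern and carry no test. LRP12 was at 36.3 ± 4.65 CPM in siUAP1 and 48.5 ± 3.93 CPM in control libraries, and TCP11L1 at 15.6 ± 2.43 CPM in siUAP1 and 21.01 ± 1.06 CPM in control libraries (SD, n = 3 each). Their log2 fold changes, -0.42 for LRP12 and -0.44 for TCP11L1, were smaller in size than that of SKI and describe genes chosen for their likeness to it.

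**Figure D2:**
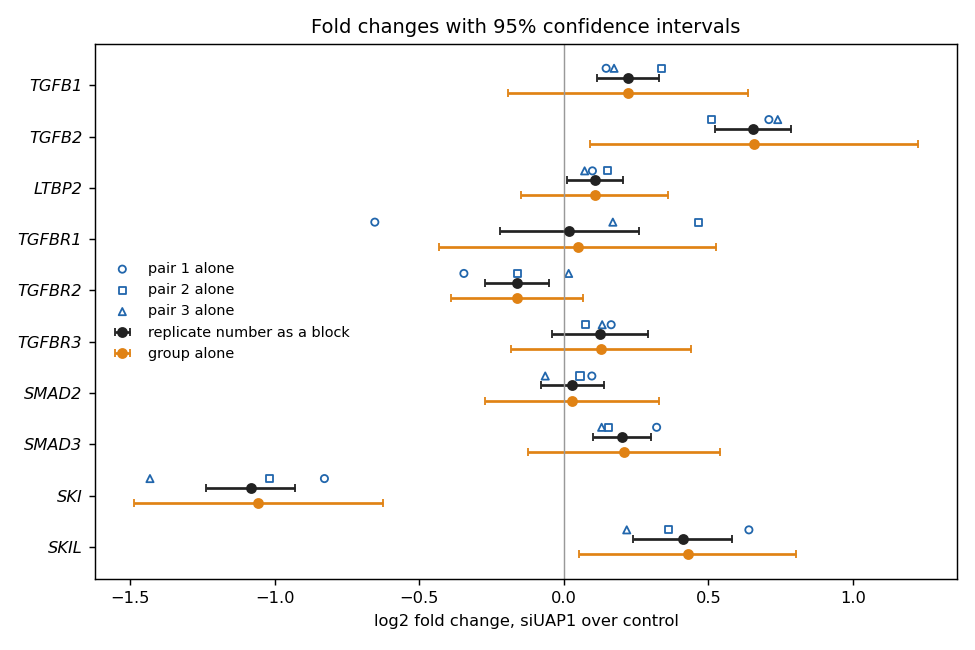
Log2 fold change of each gene, siUAP1 over control, with 95% confidence intervals built from the SE. Fits are edgeR with the replicate number as a block (black) and on the group alone (orange), and open markers give each pair. SKI lies at -1.08 and TGFB2 at 0.65 with the block, and the pairs of TGFBR1 run from -0.65 to 0.47.

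Per gene length, TGFBR2 and SMAD3 were the most abundant of the 10 transcripts. In FPKM (counts divided by gene length and library total, from the authors' table), SMAD3 was at 56.4 ± 9.67 and TGFBR2 at 54.6 ± 4.88 in siUAP1 libraries, where they overlapped, against 48.8 ± 5.85 and 61.2 ± 3.77 in control libraries, where TGFBR2 was above SMAD3 in every library (SD, n = 3 each). TGFB1 came next in both groups, at 35.0 ± 7.13 FPKM in siUAP1 and 30.0 ± 5.74 FPKM in control libraries. SKI was at 6.63 ± 1.86 FPKM in siUAP1 libraries, below TGFB2 at 11.1 ± 3.43 FPKM, whereas in control libraries SKI was at 13.8 ± 1.14 FPKM and above TGFB2 at 7.03 ± 2.03 FPKM, with no overlap of these genes in either group. LTBP2, at 15.04 ± 1.40 FPKM in siUAP1 and 13.99 ± 1.44 FPKM in control libraries, overlapped TGFB2 in siUAP1 and SKI in control libraries. TGFBR1, at 5.29 ± 1.66 FPKM in siUAP1 and 5.13 ± 0.343 FPKM in control libraries, overlapped SKI and SKIL in siUAP1 and TGFB2 in control libraries. The lowest levels were those of SKIL, TGFBR3 and SMAD2, at 3.87, 2.73 and 2.29 FPKM in siUAP1 and 2.88, 2.50 and 2.25 FPKM in control libraries. TGFBR3 and SMAD2 overlapped in both groups. The SMAD2 level is divided by an annotated length of 36366 bases, set by a longest transcript of 34526 bases, so cells that use shorter SMAD2 transcripts would have more molecules than this level gives.

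**Figure D3:**
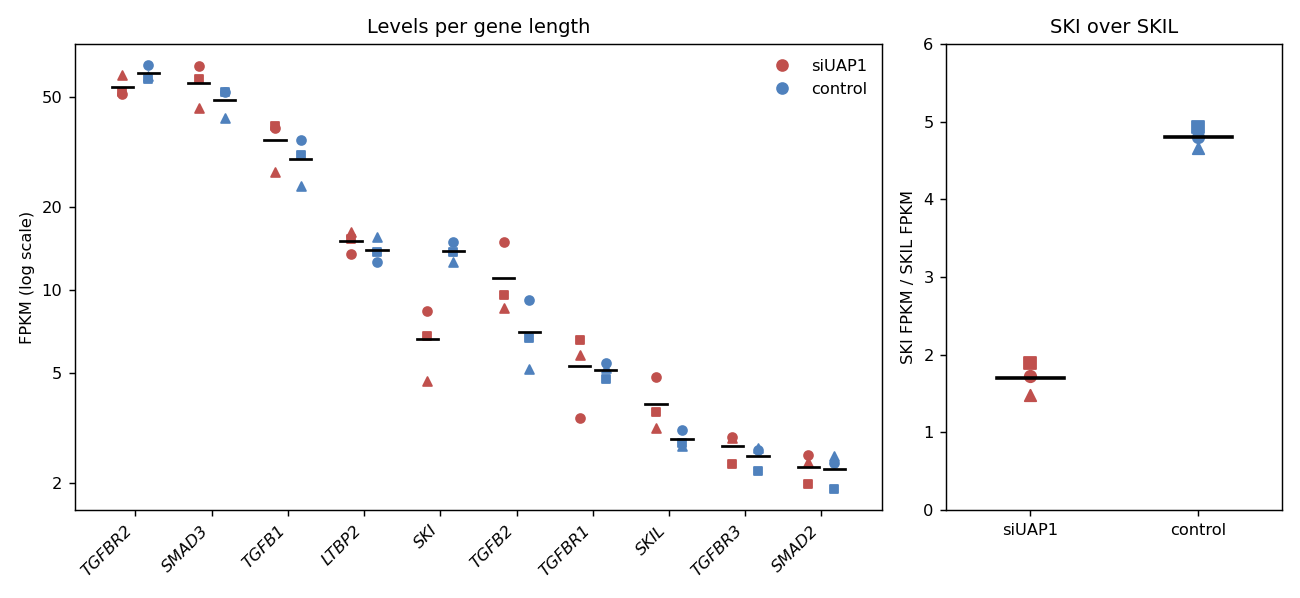
Left, FPKM (log axis) of the 10 genes in each library, siUAP1 left of control and genes ordered by the control mean, with bars at the group means (n = 3). Right, the ratio of SKI to SKIL in FPKM, at 1.48 to 1.89 in siUAP1 and 4.66 to 4.93 in control libraries.

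The rest of the pathway was read from 7 lists of 78 genes, of which 69 could be tested. With the block 27 rose, 4 fell and 38 were not called, so that 44.9% passed, beside 16.2% of all genes tested. All 7 lists were written with earlier results of these data known, so these shares describe the genes chosen and are no test of the pathway. By list, the share that passed ran from 11.1% of nuclear partners to 66.7% of latency and activation genes. The median over these genes was 0.16, beside -0.0029 over all. On the group alone 1 of the 69 was called, TGFBI (1.17, SE 0.148, edgeR adjusted p = 0.0453). In the accounts that follow, the genes named are those called with the smallest p, and where fewer than 2 of a list were called, also the uncalled ones of smallest p.

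Genes that store and free the ligands mostly rose. Of 11 latency and activation genes 9 were tested, and 6 rose, 0 fell and 3 were not called (median 0.45). Of all genes tested, 9.07% rose and 7.14% fell. On the group alone, 0 of the 9 were called. THBS1, encoding thrombospondin 1, which can activate latent TGF-beta, was at 235.3 ± 123.6 CPM in siUAP1 and 147.9 ± 76.3 CPM in control libraries, with wide scatter between numbers (0.66, SE 0.0477, edgeR adjusted p = 2.64e-10). LTBP3, which binds latent TGF-beta in the matrix, was at 287.0 ± 39.1 CPM in siUAP1 and 209.5 ± 30.6 CPM in control libraries (0.46), and LTBP1, a binding protein of the same kind, at 23.2 ± 7.81 CPM in siUAP1 and 17.1 ± 6.24 CPM in control libraries (0.45). ITGAV, the integrin subunit that pairs with activating beta chains, rose by 0.48, and FURIN, the protease that cleaves the ligand precursors, by 0.41 (edgeR adjusted p = 4.83e-08 and 1.40e-06). Of the beta chain genes, ITGB8 was not called (-0.16, edgeR adjusted p = 0.242) and ITGB6 had 3 counts over the 6 libraries. Both were named after their values were seen.

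In the activin branch, which also signals through SMAD2 and SMAD3, 2 of 5 tested genes rose and 1 fell. For this list and the other receptors, the shares over all genes tested were 9.07% higher and 7.14% lower. INHBA, the activin A subunit gene, was at 195.3 ± 80.8 CPM in siUAP1 and 147.5 ± 51.0 CPM in control libraries (0.38, SE 0.0503, edgeR adjusted p = 4.05e-06). The antagonist genes moved in opposite directions: FSTL3 rose (0.67, SE 0.0842, adjusted p = 2.03e-06) and FST, encoding follistatin, fell (-0.23, SE 0.053, adjusted p = 0.00276). Of 8 other receptor genes tested, ENG, the co-receptor endoglin, rose (0.15, adjusted p = 0.0269), and ACVR2B, an activin type II receptor gene, fell (-0.39, adjusted p = 0.00421).

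Among the 6 other SMAD genes there were 2 that rose, 0 that fell and 4 without a call. Among the 9 genes of SMAD and SKI turnover 2 rose, 1 fell and 6 were without a call. Beside these counts stand 9.07% higher and 7.14% lower over all genes tested. Of the SMAD genes, the inhibitory SMAD7 (3.61 ± 1.21 CPM in siUAP1, 2.07 ± 0.934 CPM in control libraries) and SMAD6 (8.10 ± 2.49 CPM in siUAP1, 5.77 ± 2.55 CPM in control libraries) rose by 0.83 and 0.52 (edgeR adjusted p = 0.0125 and 0.0227). SMAD4, the shared partner, was at 75.0 ± 9.09 CPM in siUAP1 and 75.0 ± 7.24 CPM in control libraries and was not called (-0.0033, SE 0.0523), a gene named after its value was seen. ZFYVE9, encoding the anchor SARA that brings SMAD2 and SMAD3 to the receptors, fell, with 33.6 ± 2.86 CPM in siUAP1 and 49.8 ± 8.57 CPM in control libraries and no overlap (-0.56, SE 0.0665, adjusted p = 1.06e-06). The ubiquitin ligase genes WWP1 and SMURF2 rose by 0.21 and 0.18 (adjusted p = 0.00807 and 0.01). The other 6 turnover genes, among them RNF111 (Arkadia, a ligase for SKI and SKIL proteins, -0.10, adjusted p = 0.324, named after its value was seen), were not called.

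Of 9 nuclear partners of the SMADs, HDAC1, a histone deacetylase of SKI co-repressor complexes, rose, with 141.4 ± 18.2 CPM in siUAP1 and 105.0 ± 5.38 CPM in control libraries (0.43, SE 0.0526, edgeR adjusted p = 1.80e-06). The other 8 were not called, with the coactivator gene EP300 at 0.14 (adjusted p = 0.121). The share called in this list, 11.1%, was below the 16.2% of all genes tested.

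Of 25 TGF-beta response genes 23 were tested, and 13 rose, 1 fell and 9 were not called (median 0.38). The shares over all genes tested were 9.07% higher and 7.14% lower. On the group alone 1 of the 23 was called, TGFBI. MMP2, encoding gelatinase A, showed the smallest p of the list, with 238.6 ± 79.0 CPM in siUAP1 and 87.1 ± 23.4 CPM in control libraries (1.44, SE 0.0512, edgeR adjusted p = 3.19e-16, or 0.118 on the group alone). TGFBI, whose product was named for its induction by TGF-beta, was at 159.8 ± 14.3 CPM in siUAP1 and 71.2 ± 13.4 CPM in control libraries (1.18). The collagen genes COL1A1, COL4A1 and COL4A2 rose by 0.85, 0.66 and 0.65. CTGF, a matrix-associated growth factor gene and the one response gene that fell, was at 590.2 ± 114.0 CPM in siUAP1 and 904.3 ± 183.4 CPM in control libraries (-0.61, SE 0.0495, edgeR adjusted p = 1.60e-09, or 0.345 on the group alone). CTGF was named after its value was seen. Several of these genes also answer other pathways, and the list was written with results of these libraries known.

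**Figure D4:**
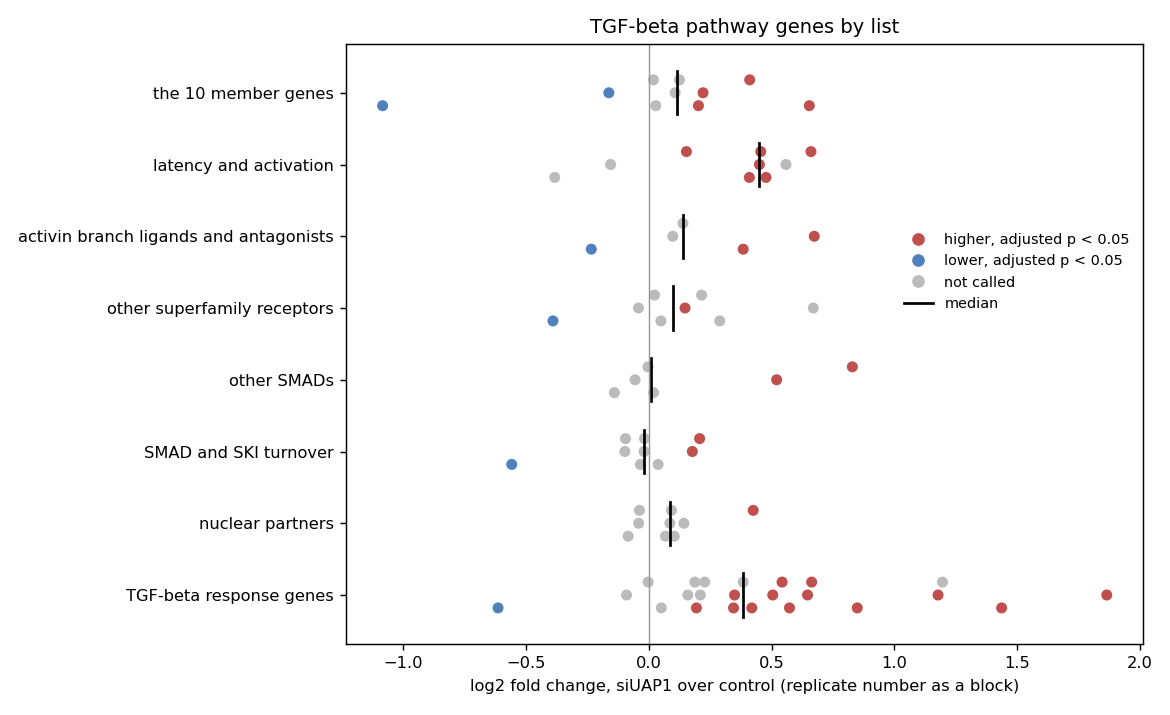
Log2 fold change (siUAP1 over control, replicate number as a block) of the 10 genes and of the tested genes of each list. Points are genes, red for adjusted p under 0.05 and higher, blue for lower and grey for not called, and black bars are medians, which lie at 0.12 for the 10 genes, 0.45 for latency and activation and 0.38 for response genes.

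Marker genes of cell state were read in the same way, beside 9.07% of all genes tested that rose and 7.14% that fell. Of the 5 tested serous carcinoma markers the keratin genes KRT8, KRT7 and KRT18 rose (0.78, 0.58 and 0.50) and 2 were not called. Of 8 mesenchymal markers PDGFRB rose (0.95, edgeR adjusted p = 7.58e-06), ZEB1 and VIM fell (-0.27 and -0.14, adjusted p = 5.09e-04 and 0.036) and 5 were not called. The list summed to 1983 to 2482 CPM in siUAP1 and 2111 to 2770 CPM in control libraries. Of 3 tested endothelial markers 0 were called with the block, with KDR at -0.30 (adjusted p = 0.462) and CDH5 at 0.03 (adjusted p = 0.738), and the list summed to 134.8 to 174.3 CPM in siUAP1 and 134.2 to 171.4 CPM in control libraries. Their part in the results on the 10 genes was not tested.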

How the data were processed

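RNA of 6 ES2 libraries was sequenced on an Illumina instrument from poly(A) RNA, per the labels. The authors deposited raw counts per gene and an FPKM table, whose divisor per library was 0.988 to 1.03 of the count total. GRCh38.p12 and DESeq2 are named in the submitters' processing notes, and no aligner, counter or strand setting is given in the sources used here. Gene positions (1-based, GRCh38) come from the deposited table, and for the 10 members GENCODE release 29 holds the same ones.

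Genes were tested across the whole table with the quasi-likelihood test of edgeR 4.0.16 (R 4.3.3), after filterByExpr (minimum count 10) and TMM scaling, with Benjamini-Hochberg adjustment over 15768 genes and a threshold of 0.05, first on the group and, as the alternative, with the replicate number as a block. SE is that of the log2 fold change. Values of single pairs are differences of log2 CPM with a prior count of 2. The replicate numbers were accepted as pairs, since libraries with the same number deviated together from their group means over tested genes (correlations 0.552, 0.454 and 0.584, against a limit of 0.1). Counts of replicates differed by more than sampling noise (chi-square over its degrees of freedom, 26.4 to 45.8), and none was merged. Whether replicates were separate cultures is not in the labels. The p-values therefore cover at most the spread between these libraries, which may be technical. With the block, the SE and p of a gene can also understate the spread between its pairs, as for SKI, SKIL, TGFBR1 and TGFBR2.

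Other settings were DESeq2 1.42.0, limma 3.58.1 (voom, or on log2(FPKM + pseudocount), a scale that understates changes of low genes), other scalings and filters, and libraries or pairs left out. Fits were tested on simulated data. The members, the lists and the tests were chosen with earlier results of these data known. Named genes are UAP1, the members, up to 5 genes per list called with the block by smallest p (with 2 uncalled ones where fewer than 2 were called), and the 3 genes most like SKI, except a few that are not reported here. Promoters are from RefSeq.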

Additional observations from a re-analysis of the deposited data

How the results depend on the processing

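On the group alone, edgeR called 17 genes, 0 of the 10 members and 1 of the 69 pathway genes. With the replicate block these counts were 2556, 6 and 31, and 2539, 6 and 31 with RLE scaling, 2587, 6 and 31 with library totals (added after seeing the data), and 1296, 5 and 26 with DESeq2. Without pair 1, 2 or 3 the block called 2204, 1987 or 1195 genes, 6, 4 or 5 members and 31, 29 or 20 pathway genes. Without a filter the group alone gave 273 genes, 2 members (SKI and TGFB2) and 14 pathway genes, and DESeq2 gave 165, 1 (SKI) and 8. Limma on FPKM gave 2 genes with a pseudocount of 1, 3 with 0.1 and 1 without a filter, and 0 pathway genes each time. Leaving out 1 library at a time gave 1 to 3 genes, 0 members and 0 pathway genes. The cause of these changes was not tested, other than that fewer libraries entered some fits.

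SKI, at -1.06 on the group alone, kept its direction in all settings, between -1.26 and -0.86 without the block and between -1.22 and -0.93 with it, where 7 of 7 settings called it, as they did TGFB2 and SKIL. TGFB1 and SMAD3 were called in 6 of 7 block settings and TGFBR2 in 4. TGFBR1, at 0.05 on the group alone, turned to -0.0070 in log2(FPKM + 0.1), -0.0072 with DESeq2 and the block, -0.22 in the block without pair 2 and -0.065 without pair 3, and ran from -0.15 to 0.28 with 1 library left out. SMAD2, at 0.03, turned to -0.0056 in the block without pair 1 and ran from -0.081 to 0.12 with 1 library left out.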
